A study of Mus musculus with 66 samples.

Results

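MUT cells of the p1 progenitor domain were compared with WT cells of that domain on day 11 of a differentiation of mouse embryonic stem (ES) cells into ventral spinal cord. The comparison held 4 of the 66 libraries of the series, namely MUT replicates 2 and 3, sorted as NFIAn, and WT replicates 2 and 3, sorted as NFIAp. Its genes were those with a normalised count of at least 10 in at least 2 of these 4 libraries, which kept 13280 of 24410 genes. Throughout, library values are normalised counts given for replicate 2 and then replicate 3. A normalised count is a read count divided by the size factor of its library, so it is not corrected for gene length and levels are compared only within a gene.

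Both genotypes were grown alike, in medium with bFGF at 10 ng/ml. On day 2 they received CHIR99021 (5 µM), which activates Wnt signalling by inhibiting GSK3. On day 3 they received retinoic acid (100 nM) and SAG (10 nM), an activator of hedgehog signalling, and from day 5 SAG alone. The cells were fixed in glyoxal, stained and sorted, 10000 to 15000 per population, and their polyadenylated RNA was sequenced. The sort called p1 in the labels is described as p0-p1 for the series as a whole, so it may hold both of these neighbouring domains. NFIAn and NFIAp name cells below and above a gate on the protein NFIA. Which gene is mutated, how many clones were used and what the parental line was are not named in the labels. All MUT libraries are NFIAn and all WT libraries of day 11 are NFIAp, so at day 11 genotype and gate cannot be told apart. Other groups used were MUT and WT p1 on days 5, 7 and 9, all NFIAn, and MUT NFIAn and WT NFIAp cells of the p2 and pM domains on day 11. To read the gate, WT NFIAp and WT NFIAn cells of p2 and pM on day 9 were used as well.

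Progenitors of the neural tube first make neurons and later make glia. The NFI transcription factors, of which NFIA is one, appear in the progenitors around this change and are needed for the onset of astrocyte genes. The p0 and p1 domains lie in the middle of the dorsoventral axis, make the V0 and V1 interneurons and are marked by the homeodomain factors Dbx1 and Dbx2.

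Recovered reads were 24.6 M and 22.4 M in the MUT libraries and 23.1 M and 27.1 M in the WT libraries, with 14319 to 14851 genes detected in each. Ribosomal protein genes took 7.65% and 4.27% of the normalised counts in MUT and 10.1% and 4.93% in WT, so replicate 2 stood above replicate 3 in both genotypes. The domain label was checked against markers of p0 and p1 and of other domains. Dbx1 had 11906 and 13683 normalised counts in MUT p1 cells, against 6034 and 3258 in WT p1 cells, while Dbx1 in the p2 domain on the same day averaged 1618 in MUT and 839 in WT. Olig2, the factor of motor neuron progenitors, had 7.97 and 14.9 in MUT and 5.39 and 46.2 in WT. Markers of the more ventral p3 domain and floor plate were present, with 7 that summed to 2168 and 3011 in MUT and 2655 and 2561 in WT. Dorsal progenitor markers were present in all 4 libraries: the 16 of that list summed to 3318 and 6639 in MUT and 3400 and 9516 in WT, and Olig3 had 679 and 614 in MUT and 303 and 1983 in WT. These sums overlapped between the genotypes, and their part in the results was not tested. Of the astrocyte markers, Gfap and Aqp4 were near the floor. Gfap had 2.99 and 0 in MUT and 0 and 9.05 in WT, and Aqp4 had 0 and 0 in MUT and 1.08 and 14.5 in WT. Others were not, such as Aldoc, with 397 and 730 in MUT and 3164 and 3221 in WT.

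The mutated gene could not be checked by name, so the NFI genes are given first. Nfia had 1014 and 1128 normalised counts in MUT and 1593 and 3639 in WT, a log2 difference of -1.17 ± 0.72 (SE; limma adjusted p = 0.62). Nfib had 900.1 and 879 in MUT and 2250.04 and 2056 in WT, a difference of -1.27 ± 0.72 (limma adjusted p = 0.57). For both genes each MUT library was below each WT library, and neither difference passed the test. The cells were sorted by NFIA protein, so the Nfia values are not independent of the gate. Nfix had 15.9 and 41.3 in MUT and 31.3 and 86.0 in WT, and Nfic had 37.9 and 80.2 in MUT and 31.3 and 39.8 in WT, and both overlapped between the genotypes. Nfia and Nfib RNA was thus present in MUT cells at day 11. Nfia averaged 18.3, 38.1, 168 and 1071 in MUT and 23.1, 48.3, 194 and 2616 in WT over days 5, 7, 9 and 11.

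Few genes passed the test. Limma called 35 of the 13280 genes at an adjusted p under 0.05 (0.264%), of which 14 were higher (0.105%) and 21 lower (0.158%) in MUT. Without an adjustment, 1347 genes had p under 0.05. The genes called lower in MUT include Grb10, Thrsp, Aldoc, Cd1d1 and Tagln2, and those called higher include H2-Q9, Gprc5a, Agtr1a, Traip and Nuf2. The count depended on single libraries: it was 17 without MUT replicate 2, 10 without MUT replicate 3, 305 without WT replicate 2 and 63 without WT replicate 3. Grb10 and Agtr1a kept their call when any 1 of the 4 libraries was left out. Aldoc and Slc27a3 lost it without MUT replicate 2, and Thrsp, Gprc5a and Klhl11 without MUT replicate 3, while the other 28 lost it in at least 2 of these fits. No called gene changed direction in any fit tried. A fit of these 4 libraries alone called Grb10 only. On recovered reads edgeR called 17 genes, limma-voom 69 (12 higher and 57 lower) and DESeq2 174 (74 higher and 100 lower). When the 18 libraries with high totals, which come from days 7 and 9, were left out, limma called 169, of which 104 were higher and 65 lower. The labels do not say whether the replicates were separate cultures, so a p-value here speaks only of how the 66 libraries vary. With 2 libraries against 2, the exact permutation test cannot give a p under 0.33. Calls therefore rest on spread shared across genes and pooled over the 26 groups, most of them of other days or domains. The spread of the 4 p1 libraries of day 11 may differ from it.

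**Figure D1:**
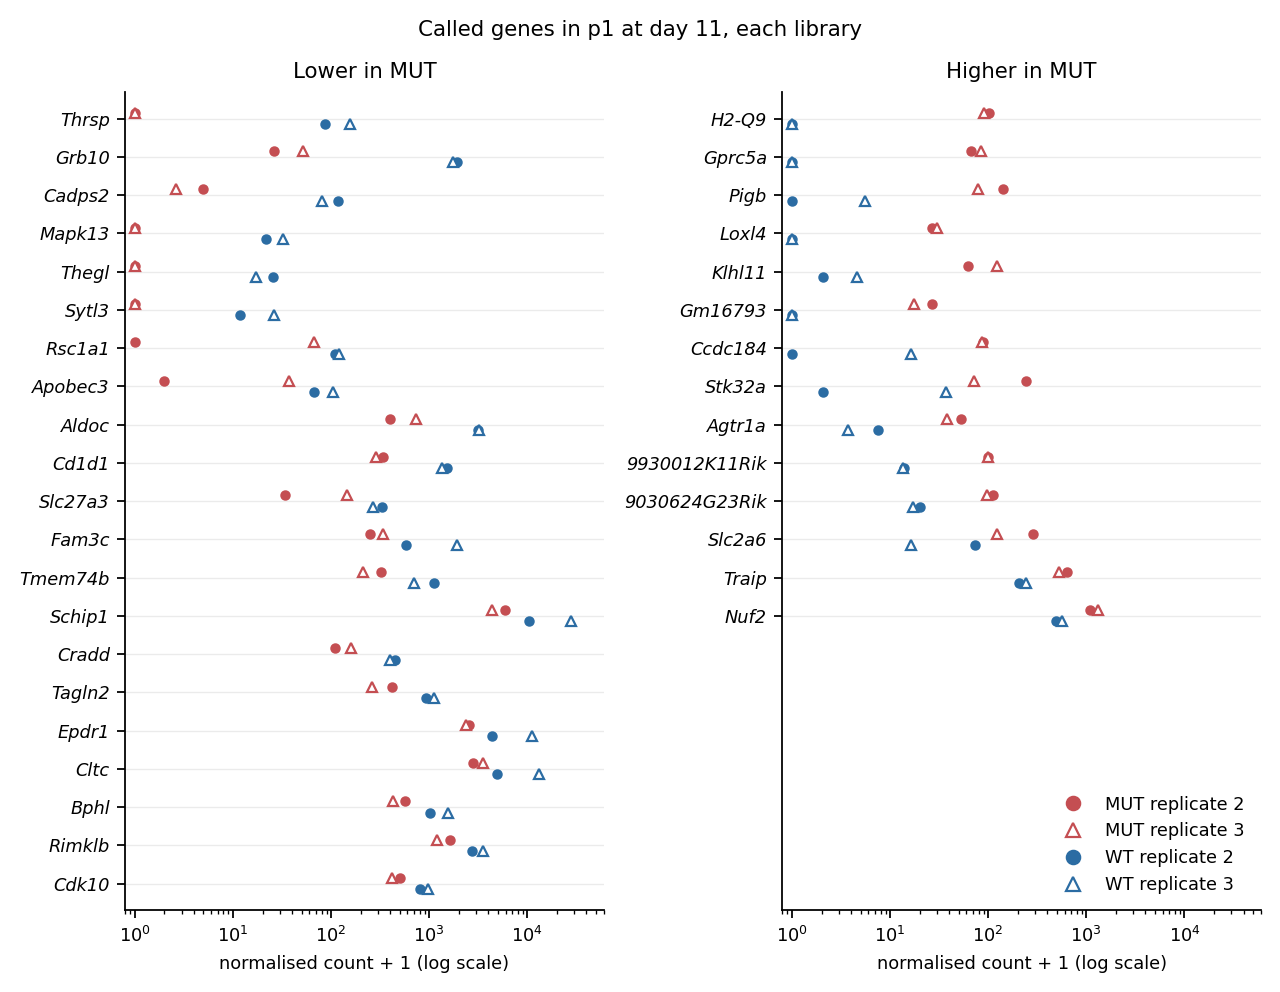
Normalised counts plus 1, on a log axis, of the 35 called genes in each p1 library of day 11, with MUT above WT on each line, circles for replicate 2 and triangles for replicate 3. Genes are ordered by the size of their difference. Grb10 stands at 24.9 and 50.4 in MUT and at 1924 and 1765 in WT, and 4 genes on each side have both libraries of a genotype at 0.

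Replicates of 1 genotype differed at about as many genes as the genotypes did. Between the MUT replicates 3325 genes differed 2-fold or more, and between the WT replicates 3671 did. Between MUT and WT, 2563 genes differed that much in replicate 2 and 4226 in replicate 3. Of these, 787 differed 2-fold or more in the same direction in both, which is 30.7% of those of replicate 2 and 18.6% of those of replicate 3, and 542 differed in opposite directions. The median absolute log2 difference was 0.57 between the MUT replicates and 0.56 between the WT replicates. It was 0.41 between MUT and WT in replicate 2 and 0.66 in replicate 3. In all, 752 genes (5.66%) had MUT libraries above both WT libraries with means 2-fold or more apart, and 741 genes (5.58%) had them below.

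**Figure D2:**
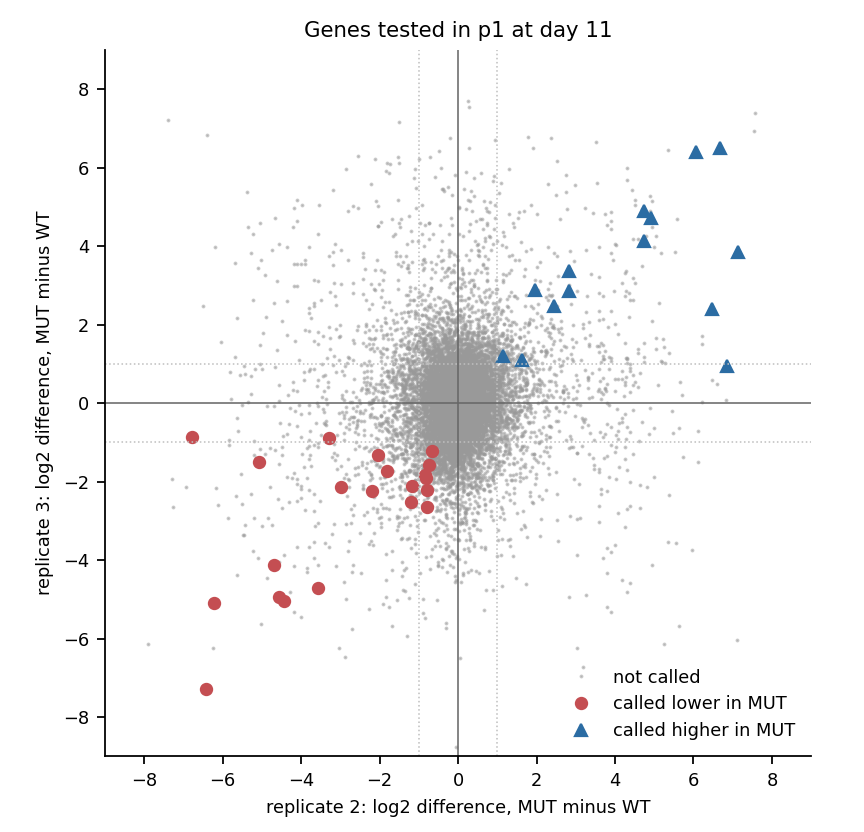
Each point is a gene tested in p1 at day 11, placed by its log2 difference, MUT minus WT, in replicate 2 (horizontal) and in replicate 3 (vertical), with dotted lines at 2-fold. Circles are the 21 genes called lower and triangles the 14 called higher in MUT. The called genes lie in the lower left and upper right, and the cloud of other genes has no clear diagonal.

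Grb10 had the largest change relative to its spread. It encodes an adaptor protein that restrains insulin and IGF receptor signalling, is imprinted, and lies on chromosome 11 (11930508 to 12038683, minus strand, GRCm38). It had 24.9 and 50.4 normalised counts in MUT and 1924 and 1765 in WT, a log2 difference of -5.66 ± 0.43 (limma adjusted p = 3.3e-13). The genotypes were far apart in both replicates, and Grb10 was the 1 gene whose call held in each of 13 other settings. The difference was there from the first day sampled and was larger on each later day. Its change from day 9 to day 11, -0.87 ± 0.58, did not pass the test. Grb10 averaged 360.0, 153, 69.4 and 37.7 in MUT p1 cells over days 5, 7, 9 and 11, against 1809.8, 2003, 1965 and 1844 in WT p1 cells. The log2 difference was -2.28 ± 0.35 on day 5 (limma adjusted p = 0.00059), -3.74 ± 0.35 on day 7 (5.2e-10) and -4.79 ± 0.39 on day 9 (5.1e-12), days on which both genotypes were NFIAn. The level in WT was flat over the course while that in MUT was lower on each later day.

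Other genes were called on day 11 and not on the earlier days. Thrsp encodes a nuclear protein that promotes the synthesis of fatty acids (chromosome 7, 97412938 to 97417730, minus strand). It had 0 and 0 in MUT and 85.2 and 154 in WT, at least 43.7-fold lower in MUT with a floor of 3 reads per library (limma adjusted p = 0.0037). In p1 it averaged 2.23, 5.85, 1.14 and 0 in MUT and 4.89, 1.10, 2.24 and 119.5 in WT over the 4 days, so its level on day 11 in WT was the single high point. Aldoc encodes aldolase C, a glycolytic enzyme used as an astrocyte marker (chromosome 11, 78322968 to 78327781, plus strand). It had 397 and 730 in MUT and 3164 and 3221 in WT, a difference of -2.57 ± 0.45 (limma adjusted p = 0.0026). On day 9 its p1 averages were 301 in MUT and 183 in WT, a difference of 0.68 ± 0.42 that did not pass. The change in this difference between day 9 and day 11, -3.25 ± 0.62, passed the test (limma adjusted p = 0.045), and Aldoc was the only gene of 13280 for which it did (0.00753%), with 435 at an unadjusted p under 0.05. That call was lost without MUT replicate 2 of day 11, without either WT library of day 11, without MUT replicate 1 of day 9 and without WT replicate 1 or 2 of day 9. The WT gate also changed between these days, from NFIAn to NFIAp, and its part in this change was not tested in p1.

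Cd1d1, which presents lipid antigens to T cells (chromosome 3, 86995834 to 86999441, minus strand), had 336 and 288 in MUT and 1534 and 1355 in WT (-2.21 ± 0.43, limma adjusted p = 0.0089). It was higher on each later day in both genotypes, averaging 99.2, 133, 220.0 and 312 in MUT and 139, 174, 447 and 1444 in WT. Tagln2 encodes transgelin 2, a binding protein of actin (chromosome 1, 172500047 to 172507380, plus strand). It had 414 and 258 in MUT and 929 and 1125 in WT (-1.64 ± 0.35, limma adjusted p = 0.019). Its course was bowed in both genotypes, with averages of 1876, 446, 220.1 and 336 in MUT and 1779, 575, 266 and 1027 in WT.

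**Figure D3:**
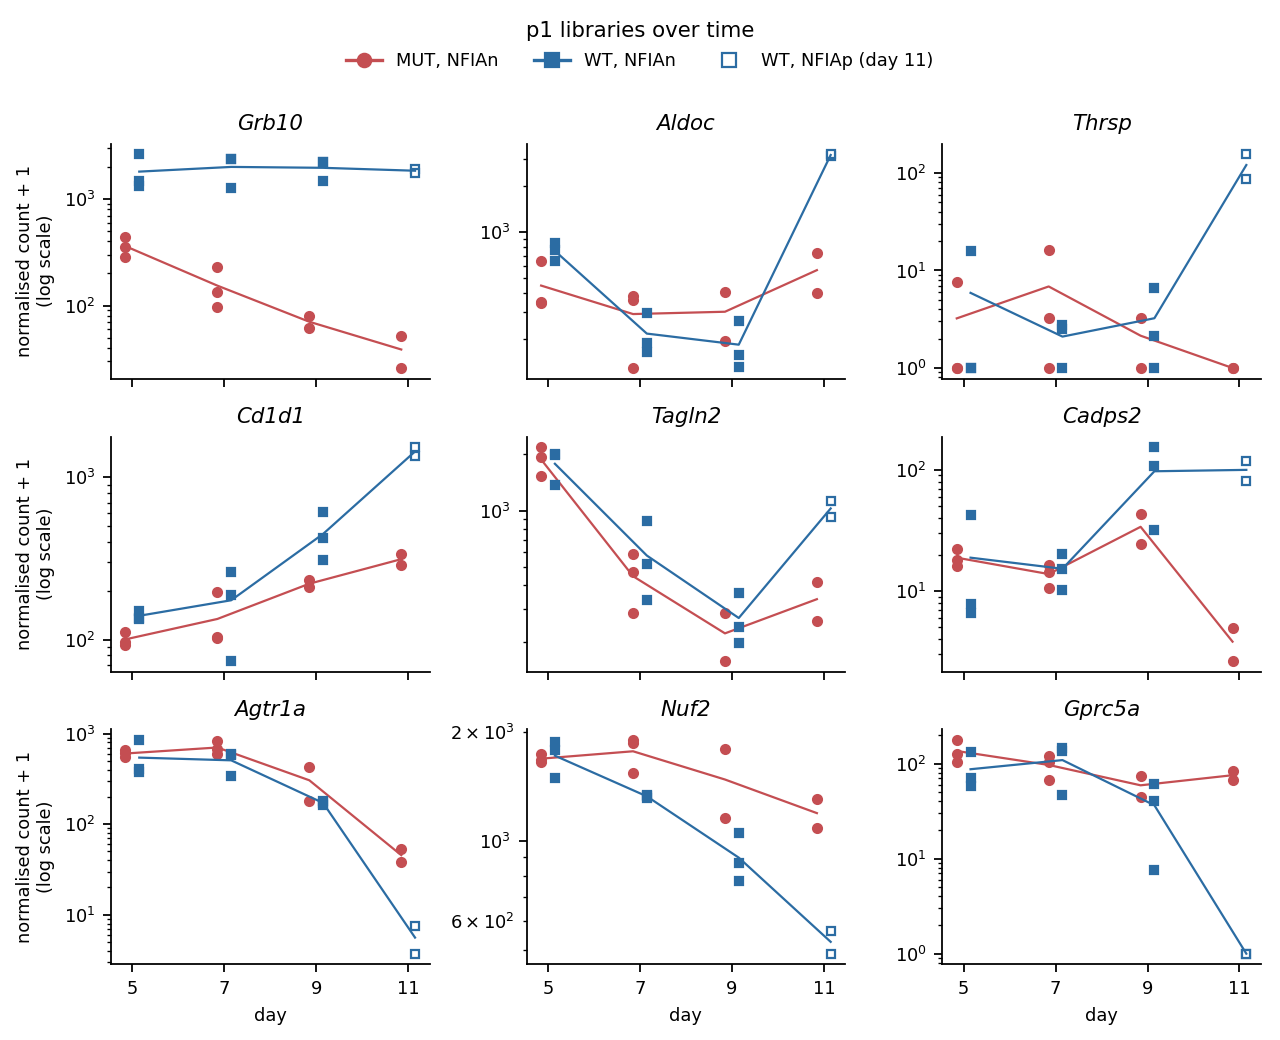
Normalised counts plus 1, on log axes of different range, of 9 called genes in every p1 library over days 5 to 11. MUT libraries are circles, set to the left, and WT libraries are squares, open where they are NFIAp, and lines join group means. Grb10 is apart on each of the 4 days, and in all 9 panels the genotypes do not overlap on day 11.

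Of the 5 genes called lower in all 3 domains, 4 have promoters in the table used. Those with a match to the NFI motif, Aldoc and Thrsp, are shown because NFIA was used for the gate, and that of Tagln2 is shown as one without a match. Sequences are RefSeq promoters on GRCm38.p6, 250 bases before to 50 after the start, read 5′ to 3′ on the strand of the gene. Capitals mark TTGGCA or its reverse complement TGCCAA, 1 arm of the palindrome bound by NFI proteins. Aldoc has 2 promoters in the table. The one shown is chr11:78322823-78323122 on the plus strand, and its match begins 146 bases before the start, while the other, chr11:78323948-78324247, holds no match. The Thrsp promoter is chr7:97417501-97417800 on the minus strand, and its matches begin 234 and 38 bases before the start. The RefSeq starts of the Aldoc, Thrsp and Tagln2 promoters shown lie inside the gene spans given above, which are those of GENCODE. The Thrsp match at 38 bases before the RefSeq start lies within its GENCODE gene.
Aldoc: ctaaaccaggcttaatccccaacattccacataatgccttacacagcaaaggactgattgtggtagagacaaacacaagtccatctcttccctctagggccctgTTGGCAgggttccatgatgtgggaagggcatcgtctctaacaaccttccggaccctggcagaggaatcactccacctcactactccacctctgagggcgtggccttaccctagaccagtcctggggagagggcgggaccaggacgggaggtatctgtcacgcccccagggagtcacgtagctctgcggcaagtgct
Thrsp: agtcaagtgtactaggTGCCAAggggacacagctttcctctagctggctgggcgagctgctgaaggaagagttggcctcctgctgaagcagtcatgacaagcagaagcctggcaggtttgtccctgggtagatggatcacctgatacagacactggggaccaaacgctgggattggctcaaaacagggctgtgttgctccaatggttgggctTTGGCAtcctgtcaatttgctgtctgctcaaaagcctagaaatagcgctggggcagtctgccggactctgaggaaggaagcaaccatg
Tagln2: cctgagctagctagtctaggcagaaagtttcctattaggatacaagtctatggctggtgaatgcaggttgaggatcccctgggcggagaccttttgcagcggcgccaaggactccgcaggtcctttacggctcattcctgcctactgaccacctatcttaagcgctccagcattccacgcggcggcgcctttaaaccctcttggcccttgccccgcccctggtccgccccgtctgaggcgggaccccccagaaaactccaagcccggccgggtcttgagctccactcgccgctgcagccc
The arm, on either strand, was in 11.2% of the 12878 promoters of genes tested, and 13.5% of the 10032 genes with a promoter in the table had 1 or more. It was in a promoter of 5 of the 20 genes called lower that have one (25%), namely Aldoc, Apobec3, Bphl, Epdr1 and Thrsp, and in none of the 7 called higher that have one. The Tagln2 promoter is chr1:172499996-172500295 on the plus strand, and neither it nor the 2 promoters of Grb10 held the arm. The full palindrome, TTGGC and GCCAA with 5 bases between them, was in 2 of the 12878 promoters (0.0155%) and in none of those of called genes. A match of letters is a description and not a binding site.

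The other genes called lower ranged from enzymes to trafficking proteins. Cadps2, which primes dense-core vesicles for release, had 3.99 and 1.65 in MUT and 118 and 80.5 in WT (-4.76 ± 1.12, limma adjusted p = 0.044). Slc27a3, of the fatty acid transport protein family, had 32.9 and 144 in MUT and 329 and 267 in WT. Apobec3, a cytidine deaminase that restricts retroviruses, had 1.00 and 36.4 in MUT and 65.8 and 104 in WT. In both of these genes MUT replicate 2 was much the lower of the MUT libraries, and the difference in replicate 3 was under 2-fold for Slc27a3. Cradd, a death domain adaptor of caspase-2, had 108 and 159 in MUT and 448 and 399 in WT.

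In a further set WT replicate 3 was far above the other 3 libraries. Schip1, a partner of the merlin protein, had 5922 and 4408 in MUT and 10276 and 27637 in WT. Epdr1, a lysosomal lipid-binding protein, had 2525 and 2390 in MUT and 4398 and 11116 in WT. Cltc, the heavy chain of clathrin, had 2797 and 3526 in MUT and 4921 and 13191 in WT, and the secreted factor Fam3c had 250.2 and 334 in MUT and 574 and 1914 in WT. Without WT replicate 3 all 4 lost their call, with differences between -0.65 and -1.01. Tmem74b, Bphl, Rimklb and Cdk10 were also called lower, with differences between -0.93 and -1.77.

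Low genes with no read in MUT were Mapk13, a p38 MAP kinase, with 20.5 and 31.7 in WT, Thegl with 24.8 and 16.3 in WT, and Sytl3, a binding partner of Rab27, with 10.8 and 25.3 in WT. These were at least 9.54-fold, 7.51-fold and 6.60-fold lower in MUT. Rsc1a1 had 0 and 66.1 in MUT and 109 and 120 in WT. It lies within Ddi2 on the same strand, and Sytl3 overlaps Ezr on the other strand, and nothing in the sources used here says that counting used strand, so their reads cannot be fully assigned.

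For 12 of the 14 genes called higher in MUT, the WT level was 2-fold or more lower on day 11 than on day 9. Low WT libraries of day 11 helped to choose these genes, so this is only a description. Agtr1a, the type 1 receptor of angiotensin II (chromosome 13, 30336441 to 30382867, plus strand), had 51.8 and 37.2 in MUT and 6.47 and 2.71 in WT (3.09 ± 0.44, limma adjusted p = 6.4e-05). It was lower on day 11 than on day 5 in both genotypes, with averages of 603, 703, 305 and 44.5 in MUT and 543, 507, 171 and 4.59 in WT. Gprc5a, an orphan receptor, had 65.8 and 83.5 in MUT and no read in WT, at least 25.1-fold higher in MUT (limma adjusted p = 0.0026). It averaged 135, 96.0, 58.2 and 74.6 in MUT over the 4 days and 86.4, 108, 35.5 and 0 in WT. H2-Q9, a class Ib MHC gene, had 102 and 90.1 in MUT and no read in WT, at least 32.2-fold higher in MUT (0.014). It belongs to a family of near-identical copies among which reads may be split, and in p1 WT cells it had averaged 94.6 on day 9.

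Traip and Nuf2 are genes of dividing cells. Traip, a ubiquitin ligase that takes apart stalled replisomes, had 630.0 and 522 in MUT and 204 and 243 in WT (1.36 ± 0.32, limma adjusted p = 0.042). Nuf2, a subunit of the kinetochore, had 1084 and 1300 in MUT and 488 and 564 in WT (1.18 ± 0.27, limma adjusted p = 0.040). Both pairs of libraries were narrow and apart, and both calls were lost when any 1 of the 4 libraries was left out. In p1 cells Nuf2 averaged 1684, 1765, 1475 and 1192 in MUT over the 4 days and 1717, 1326, 898 and 526 in WT.

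Of the others called higher, Klhl11, an adaptor of a ubiquitin ligase, had 61.8 and 121 in MUT and 1.08 and 3.62 in WT. Slc2a6, a hexose transporter, had 283 and 121 in MUT and 72.3 and 15.4 in WT. Pigb, a mannosyltransferase of GPI anchors, had 140 and 78.5 in MUT and 0 and 4.52 in WT, and it overlaps Ccpg1 on the other strand. Ccdc184 had 87.7 and 85.9 in MUT and 0 and 15.4 in WT. The kinase Stk32a had 241 and 71.1 in MUT and 1.08 and 36.2 in WT, so its replicates differed widely. Loxl4, a lysyl oxidase, had 25.9 and 28.9 in MUT and no read in WT. The remaining 3 were gene models, Gm16793, 9930012K11Rik and 9030624G23Rik.

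The courses of the called genes over days 9 and 11 were counted as a description, since the day 11 libraries chose them. Of the 21 lower genes, day 11 was 2-fold or more above day 9 for 0 in MUT and 9 in WT, and 2-fold or more below for 6 in MUT and 0 in WT. Of the 14 higher genes, day 11 was 2-fold or more above day 9 for 6 in MUT and 0 in WT, and 2-fold or more below for 1 in MUT and 12 in WT. On the earlier days limma called, in p1, 4 genes on day 5, 6 on day 7 and 3 on day 9 (0.0301%, 0.0452% and 0.0226%). The calls were 0.0151% higher and 0.0151% lower on day 5, 0.0226% in each direction on day 7, and 0.00753% higher and 0.0151% lower on day 9. Unadjusted p was under 0.05 for 425, 681 and 549 genes on these days. Grb10 was the only called gene of day 11 among them.

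The same contrast in p2 and pM used other libraries, though the labels do not say whether equal replicate numbers mark 1 culture. Limma called 24 genes in p2 (0.181%; 0.0452% higher and 0.136% lower) and 172 in pM (1.3%; 0.542% higher and 0.753% lower). Of the 21 genes lower in p1, 6 were called lower in p2, which is 28.6% of them and 33.3% of the 18 of p2. In pM 8 were called lower, which is 38.1% of them and 8% of the 100 of pM. Aldoc, Cd1d1, Grb10, Tagln2 and Thrsp were called lower in all 3 domains. Of the 14 higher genes, none was called in p2 and Agtr1a was in pM. The sign was that of p1 in 18 of the 21 lower genes in p2, and in 18 in pM, and in 10 of the 14 higher genes in each.

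Among the shared genes, Thrsp averaged 0 in MUT and 119.5 in WT in p1, 1.74 in MUT and 418 in WT in p2, and 0.610 in MUT and 327.5 in WT in pM. With so few reads in MUT, the size of its difference cannot be compared between domains. The difference of Aldoc was -2.57 ± 0.45 for p1, -2.66 ± 0.45 for p2 and -1.90 ± 0.45 for pM, with WT averages of 3192, 6184 and 1695. Grb10 had -5.66 ± 0.43 for p1, -4.53 ± 0.43 for p2 and -4.42 ± 0.43 for pM. For neither Aldoc nor Grb10 was the difference in p1 shown to depart from the mean of the other domains.

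That departure was tested for all genes, and it passed for Ddc alone (0.00753%, with 629 genes at an unadjusted p under 0.05), which encodes the enzyme that makes dopamine and serotonin from their precursors. Ddc had 138 and 117 in MUT p1 cells and 66.9 and 76.9 in WT p1 cells, a difference of 0.82 ± 0.33 that was not called (limma adjusted p = 0.34). It differed by 3.28 ± 0.33 in p2 and 3.92 ± 0.33 in pM, both called, with averages of 653 in MUT and 66.01 in WT in p2 and 2666 in MUT and 172 in WT in pM. The difference in p1 was below the mean of the other domains by -2.78 ± 0.40 (limma adjusted p = 0.00015). This call was kept when any 1 library of day 11 was left out. It was lost with limma-voom (adjusted p = 0.11) and in fits of only day 11 or only the groups compared (adjusted p = 1 in both).

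**Figure D4:**
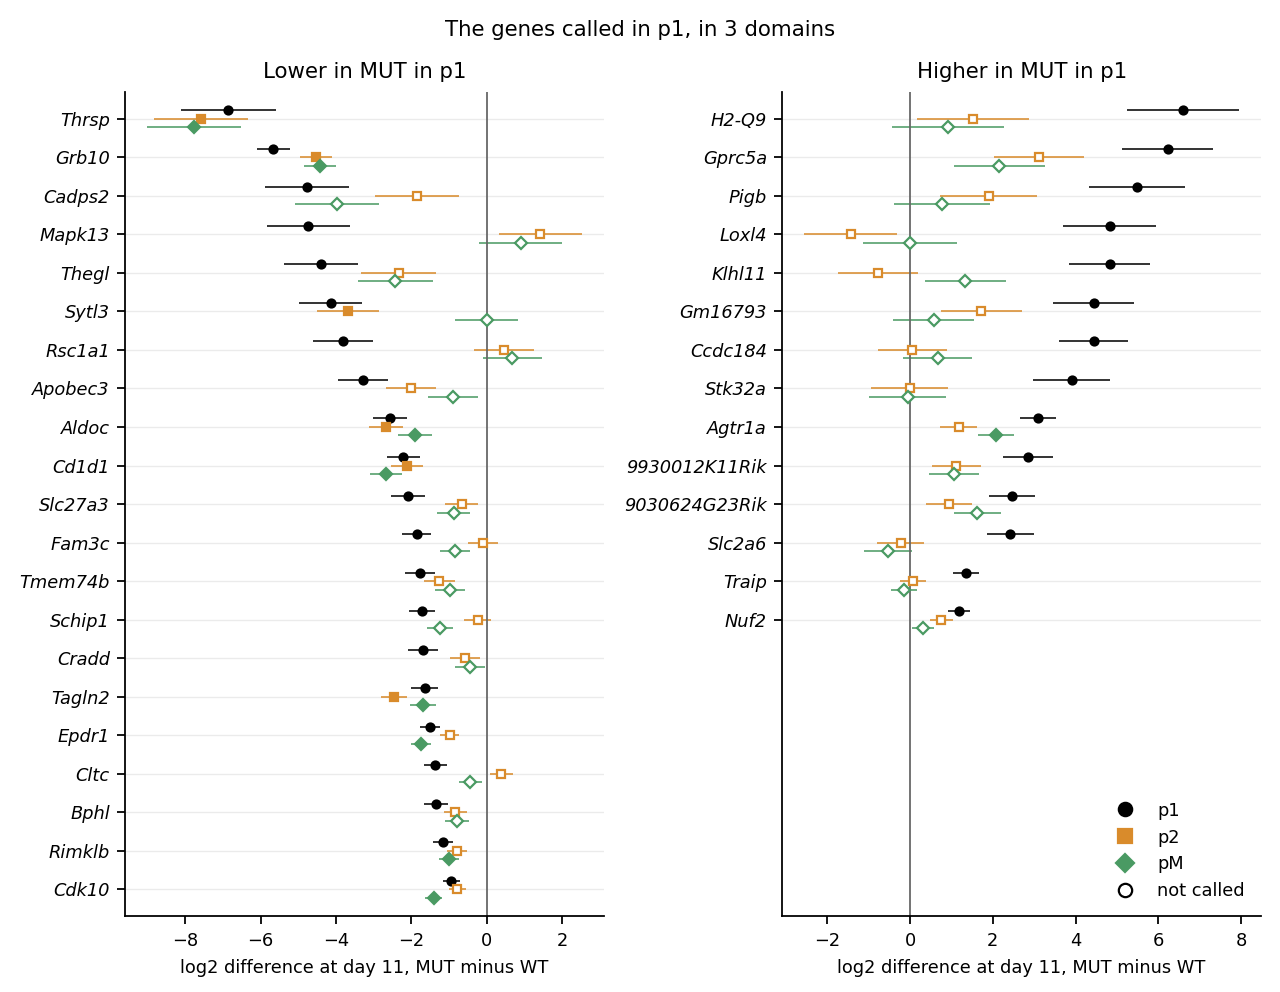
Log2 differences at day 11, MUT minus WT, of the 35 genes called in p1, with the SE of the fit as bars, in p1 (circles), p2 (squares) and pM (diamonds); open symbols did not pass the test. Grb10, Thrsp, Aldoc, Cd1d1 and Tagln2 are filled in all 3 domains, and of the higher genes Agtr1a alone is filled in another domain, pM; where a genotype is at 0, as for Thrsp in MUT, the size depends on the pseudocount.

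The gate was read in WT cells of day 9, where p2 and pM were sorted both ways, from 3 NFIAp and 3 NFIAn libraries in p2 and 3 NFIAp and 2 NFIAn in pM. Of the 21 genes lower in MUT, 12 averaged higher in NFIAp than in NFIAn cells in both domains (57.1%), beside 29.6% of all genes tested. Aldoc averaged 555 in NFIAp and 235 in NFIAn cells of p2, and 264 in NFIAp and 133 in NFIAn cells of pM. Grb10 averaged 2108 in NFIAp and 1327 in NFIAn cells of p2, and 3622 in NFIAp and 3041 in NFIAn cells of pM, while MUT NFIAn cells of day 11 averaged 43.9 in p2 and 60.7 in pM. Thrsp averaged 4.85 in NFIAp and 0.446 in NFIAn cells of p2 and was at 0 in both of pM. Of the 14 genes higher in MUT, 4 averaged lower in NFIAp cells in both domains (28.6%), beside 25.7% of all genes. No NFIAn cells of WT and no NFIAp cells of MUT on day 11 were among the libraries, so the part of the gate in the day 11 differences cannot be told apart from genotype.

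Gene lists from textbook knowledge were described by counts and medians, beside the median of all genes tested, 0.002. The astroglial list had 32 of 37 members tested, with 1 called lower, Aldoc, and none higher (0.158% and 0.105% over all genes). Its median difference was -0.74, and 9 members (28.1%) had MUT libraries below both WT libraries by 2-fold or more, with none above, where 5.58% of all genes were below and 5.66% above. In all, 24 members had a negative and 8 a positive difference. The glutamate transporter Slc1a2 was the 1 member whose MUT libraries were both above the WT libraries, with 2859 and 2364 in MUT and 1893 and 1437 in WT (0.66 ± 0.49, limma adjusted p = 0.71). Among the 9 were Aldoc, Aldh1l1, S100b, Tnc, Bcan, Ndrg2, Slc4a4 and Slc1a3. Bcan, a proteoglycan of the brain matrix, had 7.97 and 65.3 in MUT and 619 and 395 in WT (-4.35 ± 1.46, limma adjusted p = 0.20). Ndrg2 had 308 and 493 in MUT and 2202 and 2527 in WT (-2.59 ± 1.17, limma adjusted p = 0.42). Aldh1l1, a folate enzyme and astrocyte marker, had 26.9 and 104 in MUT and 445 and 474 in WT (-3.09 ± 1.26, limma adjusted p = 0.35), and its difference in pM, -6.97 ± 1.26, was called. These genes were well apart in the p1 libraries and did not pass the test. In these sorted bulk samples, fewer cells of a type and less RNA per cell cannot be told apart.

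Glutamate transporter Slc1a3 had 2768 and 2556 in MUT and 5838 and 6172 in WT (-1.17 ± 0.42, limma adjusted p = 0.25). Fabp7 and Hopx, also of radial glia and astrocytes, overlapped between genotypes because replicate 2 was high in both: Fabp7 had 60418 and 15652 in MUT and 152584 and 53685 in WT, and Hopx had 2172 and 804 in MUT and 7545 and 2145 in WT. Within each replicate number both genes were lower in MUT. The list's summed level was 188951 and 120139 in MUT and 302651 and 203846 in WT, and Fabp7 and Id3 had the highest counts in each library.

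Transcription factors of late progenitors had a median of -0.41, with 5 of 18 (27.8%) 2-fold or more lower without overlap and none that much higher, beside 5.58% and 5.66% of all genes. None was called, and 2 of the 18, Sox8 and Zbtb20, were higher without overlap by less than 2-fold. The 5 were Nfia, Nfib, Klf15, Id4 and Hey2. The gate on NFIA protein went with genotype, so Nfia among them is not independent of the sort. Id4, an inhibitor of bHLH factors, had 1130.4 and 760.2 in MUT and 2806 and 8423 in WT (-2.39 ± 0.64, limma adjusted p = 0.084). Klf15 had 64.8 and 24.8 in MUT and 175 and 545 in WT, and the Notch effector Hey2 had 80.7 and 140.5 in MUT and 414 and 445 in WT. Radial glial core genes had a median of 0.15, and none of 15 was called. Sox2 differed by -0.53 ± 0.33 and Sox9 by -0.42 ± 0.60, and neither passed.

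Genes of p0 and p1 identity had a median of -0.19 with none of 8 called. Dbx1 differed by 1.53 ± 0.81 (limma adjusted p = 0.53), with both MUT libraries above both WT libraries, and averaged 4460, 6504, 8985 and 12795 in MUT over the 4 days and 5692, 4348, 6154 and 4646 in WT. Dbx2 differed by 0.47 ± 0.51, Pax6 by -0.09 ± 0.26 and Nkx6-2 by -1.04 ± 0.64, and none passed. V0 and V1 interneuron genes had 8 of 11 members tested, a median of 0.19 and no call. Among genes of other domains none was called either, and medians differed in sign. The median was 0.78 over 8 p2 and V2 genes and 0.28 over 4 p3 and floor plate genes. It was -0.68 over 6 pMN and motor neuron genes and -0.54 over 14 dorsal progenitor genes. Of the 14, 3 (21.4%) were 2-fold or more lower without overlap and 1 (7.14%) higher, beside 5.58% and 5.66% of all genes. Some of these medians changed sign between replicates 2 and 3. They were 1.71 and -0.30 for p2 and V2, 0.72 and -0.41 for p3 and floor plate, and 0.39 and -1.12 for p0 and p1 identity. Those of the pMN and dorsal lists were negative in both. Lhx3, of the p2 and V2 list and shared with motor neurons, had 242 and 297 in MUT and 48.5 and 83.3 in WT (2.06 ± 0.62, limma adjusted p = 0.15).

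Neurogenic and neuronal lists had no called gene. Neurogenic progenitor genes had a median of 0.38 over 19 members and postmitotic neuron genes 0.17 over 25. The proneural factor Neurog2 differed by 0.05 ± 0.42 and Neurod4 by 0.38 ± 0.44. The neuronal tubulin Tubb3 differed by 0.41 ± 0.41 and doublecortin Dcx by 0.15 ± 0.53. None of these 4 differences passed the test, which does not show that the levels were equal.

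Cell cycle lists sat above 0 as a whole but gave no call. The median was 0.43 over 26 S phase genes and 0.47 over 28 genes of G2 and M phase. MUT libraries lay above both WT libraries for 11 of the 26 (42.3%) and 11 of the 28 (39.3%), beside 17.5% of all genes, and below for none. In replicate 2 the medians were 0.77 and 0.67, and in replicate 3 they were 0.18 and 0.20, so most of the shift in p1 was in replicate 2. The S phase median on day 11 was 0.37 in p2 and 0.62 in pM, and that of G2 and M phase 0.31 in each. In p1 on day 9 the medians were 0.12 for S phase and 0.40 for G2 and M phase. Summed S phase counts were 77021 and 70043 in MUT and 44863 and 72056 in WT, which places the low sum in WT replicate 2. Ribosomal protein share was also highest in that library, and its part in these values was not tested. Cdk1 differed by -0.08 ± 0.32 and Mki67 by 0.46 ± 0.45. A shift of like size was not particular to these lists. Medians were 0.47 for hypoxia and glycolysis, 0.41 for cholesterol synthesis, 0.40 for the integrated stress response and 0.37 for p53 targets. In these, 33.3% to 38.1% of members had MUT libraries above both WT libraries. Other lists lay below 0, such as immediate early genes (-0.54) and neural matrix genes (-0.60).

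Early timing genes had a median of 0.61 over 14 tested, with no call. Their median was 0.60 in p2 and 0.83 in pM. Lin28b, which blocks let-7 microRNAs, had 96.7 and 57.8 in MUT and 46.4 and 38.9 in WT (0.80 ± 0.47, limma adjusted p = 0.60), and Hmga2 differed by -0.01 ± 0.29. The other lists, which cover signalling, matrix, metabolism, stress and further cell types, had no called member, where 0.264% of all genes were called. At that share a short list would mostly hold no call, so the lack of one says little about its genes. The same holds for every other list without a call.

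**Figure D5:**
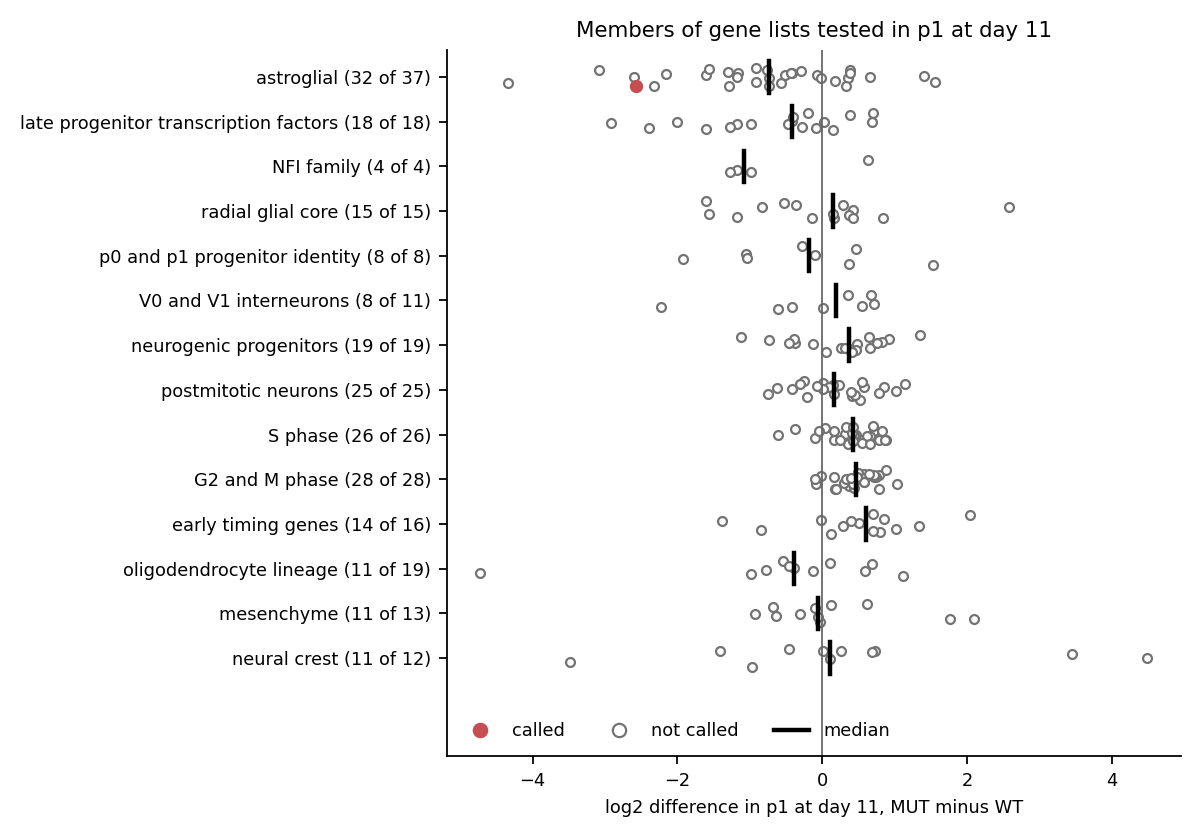
Log2 differences in p1 at day 11, MUT minus WT, of the tested members of 14 gene lists, 1 point per gene, with the number tested of the number listed. Thick lines mark medians, which run from -1.08 for the NFI family to 0.61 for early timing genes. Filled points passed the test, which Aldoc alone did.

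Markers of cells that the sort should leave out were low for blood vessels, blood and pluripotent cells and not for neural crest and mesenchyme. Endothelial and blood markers summed to 2.99 and 46.3 in MUT and 60.4 and 44.3 in WT, with 6 of 11 at 0 in all 4 libraries. Pluripotency markers summed to 81.7 and 36.4 in MUT and 238 and 158 in WT, and 3 of 8 were at 0 throughout. Neural crest markers summed to 2663.5 and 4049 in MUT and 3899 and 3661 in WT, and mesenchyme markers to 3367 and 3698 in MUT and 3609 and 3357 in WT. These sums overlapped between genotypes except for the pluripotency markers, and no member of the 4 lists was called.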

How the data were processed

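RNA of sorted cells was sequenced in 66 libraries (37 WT and 29 MUT, in 26 groups of genotype, day, domain and gate). The deposited values are a signal: read counts per gene that the authors divided by a size factor per library. DESeq2 and the mouse build mm10 are named in the submitters' processing notes; the aligner, counter and strand setting are not given in the sources used here. Whole reads could be recovered, within 0.01, for 100% of values in each library. No 2 replicate libraries held identical values.

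Values were analysed as log2(value + 1), which understates the change of low genes, keeping genes that reached 10 in 2 or more of the 4 p1 libraries of day 11. Such a filter passes a gene that is high in 1 genotype only. Limma 3.58.1 (R 4.3.3), with a variance trend and a mean for each of the 26 groups, gave two-sided p-values, which were Benjamini-Hochberg adjusted over 13280 genes and called under 0.05. Differences are MUT minus WT with the SE of the fit. On simulated data for the day 11 comparison in p1, 15 of 81 calls were false (18.5%), above the threshold of 0.05. Single calls are therefore uncertain, those near the threshold most of all. The fit recovered 8% of the genes set 2-fold apart and 58% of those set 4-fold apart. A gene that did not pass may thus still differ. Alternatives used edgeR 4.0.16, DESeq2 1.42.0 and limma-voom on recovered reads, other filters, pseudocounts and scalings, and fewer libraries.

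A bound against a group at 0 used a floor of 3 reads per library, which covers counting error only. Coordinates are GENCODE M21 (GRCm38), in which 95.8% of symbols were found; promoters are RefSeq. Figures were drawn with matplotlib 3.10.9.

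Genes named are up to 12 higher and 12 lower called genes of largest difference with no overlap between genotypes and a higher group averaging 50 or more, gene models passed over (9 higher and 12 lower genes met this), up to 4 called members of each list, a set of fixed genes, and the 5 genes of smallest p in each direction for tests of a difference of differences. The other called genes, list members set apart by 2-fold, and genes called on earlier days were named after their values were seen. The comparison, lists and fixed genes were chosen with earlier results of these data known. The results of a few single genes are not reported here.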

Additional observations from a re-analysis of the deposited data

Results flagged for a closer look

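For Aldoc the difference between MUT and WT in p1 cells was itself different between day 11 and day 9. It was -2.57 on day 11 and 0.68 on day 9, and the change between them was -3.25 ± 0.62 (SE; limma adjusted p = 0.045). The number of libraries was 2 MUT and 2 WT on day 11 and 2 MUT and 3 WT on day 9, and the WT gate differed between the days. The call was lost with TMM scaling (adjusted p = 0.098), with edgeR (0.053), in a fit of only the groups compared (1) and without any of 6 single libraries, where the limma adjusted p lay between 0.055 and 0.46.

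For Ddc the difference between MUT and WT on day 11 was itself different between domains. It was 0.82 for p1 but 3.28 for p2 and 3.92 for pM, and that in p1 departed from the mean of the other domains by -2.78 ± 0.40 (SE; limma adjusted p = 0.00015). The call was lost with limma-voom (adjusted p = 0.11) and in fits of only the groups compared (1) or only day 11 (1), and kept without any 1 of the 12 libraries of day 11. The difference in p1 alone did not pass the test.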

How the results depend on the processing

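The 35 calls of day 11 became 174 with DESeq2, 17 with edgeR, 69 with limma-voom (12 higher and 57 lower; chosen after seeing the data), 89 with no filter, 83 with a pseudocount of 8, 7 with a correlation between libraries of equal number, and 169 (104 higher, 65 lower) when the 18 high-total libraries were left out. They became 1 with only the groups compared and 1 with only the 12 libraries of day 11. TMM scaling gave 31 (10 higher and 21 lower) and moved the median of all genes by -0.01. Leaving out 1 library gave 10 to 305. The share of higher calls was 40% and became 32.3% with TMM, 61.5% without the 18 libraries, 17.4% with limma-voom, 29.4% with edgeR and 28.6% with the correlation.

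DESeq2 called 11 genes on day 9, 19 on day 7 and 10 on day 5, the correlation 5 on day 9 and 3 on day 7, and the groups compared alone 0 on each. Leaving out 1 library gave 2 to 4 on day 9, 2 to 10 on day 7 and 1 to 5 on day 5. The change from day 9 to day 11 had 1 call, and 9 with DESeq2, 0 with TMM, 0 with edgeR, 6 with no filter, 5 with a pseudocount of 8, 2 without the 18 libraries, 0 with only the groups compared and 0 to 6 without 1 library. The departure of p1 from p2 and pM had 1 call, and 21 with DESeq2, 34 with the correlation, 5 with the filter over 66 libraries, 0 with limma-voom, 11 with no filter, 3 with a pseudocount of 8, 3 without the 18 libraries, 0 with only the groups compared, 0 with only day 11 and 1 to 147 without 1 library. The cause of these shifts was not tested.

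Equal replicate numbers are not said to mark a shared culture, and deviations of libraries of equal number correlated on day 11 by 0.0704 (p1), 0.309 (p2) and 0.283 (pM). With the replicate number as a block, day 11 had 21 calls (3 shared with the 35) in the groups compared and 1351 (all 35 shared) with a block within each day over 66 libraries. The block within days gave 63 on day 9, 167 on day 7, 57 on day 5, 7 for the change to day 11 and 8 for the departure of p1; the block in the groups compared gave 0 for each of these.

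Among named genes the direction depended on single libraries for 13 that were not called. Without 1 library the difference ranged from -0.43 to 0.25 for Pax6, -0.91 to 0.064 for Sox9, -0.45 to 0.67 for Sox10, -1.98 to 0.90 for Olig2, -0.25 to 0.34 for Neurog2 and -0.24 to 1.00 for Neurod4. It ranged from -0.52 to 0.82 for Hes5, -0.38 to 0.67 for Dcx, -0.16 to 0.14 for Hmga2, -0.41 to 0.66 for Nr6a1, -0.55 to 0.42 for Ccnd1, -0.52 to 0.35 for Cdk1 and -0.17 to 0.82 for Id3. With 2 libraries in each group, a gene of few reads is known only by its bound.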

Other observations

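Genes called in p1 on earlier days, named after their values were seen, give a second set of differences besides Grb10. Xlr3a, an X-linked gene of a family expressed in lymphoid and germ cells, was called higher in MUT on day 5 (1.89 ± 0.33, limma adjusted p = 0.0053), day 7 (2.76 ± 0.33, 6.3e-07) and day 9 (2.32 ± 0.37, 0.00073). It averaged 1374, 1839, 1518 and 975 normalised counts in MUT over days 5, 7, 9 and 11 and 363, 304, 321.5 and 307 in WT. On day 11 the difference was 1.63 ± 0.41 (limma adjusted p = 0.064), which did not pass. The lowest MUT library of p1 over the 4 days had 774 and the highest WT library 477, so the genotypes did not overlap on any day. Xlr3b averaged 359.8, 487, 497 and 259.6 in MUT and 55.5, 99.3, 110.5 and 70.3 in WT, and was called on days 5 and 7. Xlr3a and Xlr3b are near-identical copies, among which reads may be split, so the value of each alone is uncertain.

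H19, an imprinted noncoding RNA, was called lower in MUT on day 7 alone (-2.76 ± 0.51, limma adjusted p = 0.0083), and it averaged 181, 102, 219 and 181 in MUT over the 4 days and 341, 698, 74.6 and 434 in WT. The order of the genotypes on day 9 was the reverse of that on the other days. The other genes called on 1 earlier day were Zfp784, Chl1, Eif2s3y and Cnp, and on day 11 none of these passed the test. Eif2s3y, called higher in MUT on day 7, averaged 298, 548, 510 and 482 in MUT and 121, 121, 156 and 170 in WT. Cnp, called lower in MUT on day 5, averaged 214, 504, 1676 and 1873 in MUT and 534.5, 1079, 3294 and 3250 in WT. For both Eif2s3y and Cnp the genotypes did not overlap in p1 on any of the 4 days.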
